A study of Homo sapiens with 15 samples.

Results

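The annexin family was followed through RNA-seq of 3 human acute myeloid leukemia (AML) cell lines in which the ubiquitin ligase RNF5 was knocked down. Its members here were the 8 genes ANXA1, ANXA2, ANXA3, ANXA4, ANXA5, ANXA6, ANXA7 and ANXA11, chosen by gene symbol from the 57820 gene identifiers in the deposited files. Cells of MOLM-13 and U937, both monocytic, and of HL-60, promyelocytic, were transduced with lentivirus, either the empty vector pLKO or the same vector with a short hairpin RNA targeting RNF5, called shRNF5. The 15 libraries comprised 3 pLKO and 2 shRNF5 from MOLM-13, 2 and 2 from U937, and 3 and 3 from HL-60. The control therefore carried no hairpin, each line stands for itself only, and the hairpin sequenced was not named. Harvest was at 7 days by the sample labels and at 5 days by the series design. Nothing in the labels says that replicates were separate cultures, so p-values measure only the spread between these libraries.

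Annexins are cytosolic proteins that bind acidic phospholipids, above all phosphatidylserine, when calcium rises. A conserved core of repeats carries the calcium sites, and a variable N-terminus binds partners such as S100 proteins. In myeloid cells they are known for membrane repair, vesicle traffic and the handling of inflammation, and secreted ANXA1 acts on formyl peptide receptors. Annexin V, the product of ANXA5, is also used as a purified protein to stain dying cells, and nothing here measured protein.

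The promoters of the 4 annexins whose RNA passed the test in at least 1 line are shown first, since all 4 rose in HL-60. Each is the 250 bases upstream of the RefSeq transcription start, for ANXA6 the first of its 2 starts (RefSeq table on GRCh38.p14), 5′ to 3′ on the gene's strand, and each matched GRCh37 exactly once. Capitals mark TATAAA and TGANTCA, the latter the AP-1 element. ANXA1 was at chr9:75766531-75766780 on the plus strand, ANXA2 at chr15:60690186-60690435 on the minus strand, ANXA5 at chr4:122618136-122618385 on the minus strand and ANXA6 at chr5:150537341-150537590 on the minus strand.
ANXA1: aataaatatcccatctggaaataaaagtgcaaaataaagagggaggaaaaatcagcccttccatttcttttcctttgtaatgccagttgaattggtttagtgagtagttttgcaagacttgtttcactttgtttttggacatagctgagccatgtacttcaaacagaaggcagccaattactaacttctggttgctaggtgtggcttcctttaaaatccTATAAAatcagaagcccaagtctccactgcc
ANXA2: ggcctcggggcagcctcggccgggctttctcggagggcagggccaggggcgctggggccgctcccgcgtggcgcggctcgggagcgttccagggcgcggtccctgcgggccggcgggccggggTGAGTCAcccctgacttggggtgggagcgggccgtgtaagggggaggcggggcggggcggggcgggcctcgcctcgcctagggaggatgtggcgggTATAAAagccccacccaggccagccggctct
ANXA5: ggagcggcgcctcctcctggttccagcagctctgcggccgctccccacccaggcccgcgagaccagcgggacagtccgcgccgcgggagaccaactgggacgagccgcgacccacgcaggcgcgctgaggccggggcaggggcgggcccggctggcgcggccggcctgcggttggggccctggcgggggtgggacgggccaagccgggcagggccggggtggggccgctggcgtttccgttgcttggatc
ANXA6: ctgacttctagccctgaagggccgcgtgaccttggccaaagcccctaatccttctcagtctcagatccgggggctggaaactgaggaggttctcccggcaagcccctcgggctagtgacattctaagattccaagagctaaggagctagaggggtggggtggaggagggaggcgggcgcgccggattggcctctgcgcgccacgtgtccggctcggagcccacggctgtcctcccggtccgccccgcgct
In ANXA1 and ANXA2, TATAAA started 31 bases before the transcription start, at position -31 in each. ANXA2 also held TGAGTCA at -127. ANXA1 had 38.4% G or C and 0 CpG, whereas ANXA2 had 78% and 28 CpG, ANXA5 78.8% and 31 CpG, and ANXA6 65.6% and 19 CpG. The windows of ANXA2, ANXA5 and ANXA6 each held the GC box GGGCGG, which that of ANXA1 did not, and those of ANXA1 and ANXA6 held CCAAT. Searched on both strands, TATAAA was in 3 of the 12 RefSeq promoters of the 8 members (ANXA1, ANXA2 and 1 of ANXA11) and in 10.7% of 35114 promoters of the same length. TGANTCA was in 1 of the 12 and in 6.57% of all promoters. GGGCGG was in 7 of the 12 and in 42.6% of all promoters, and CCAAT in 4 of the 12 and in 32% of all. The median promoter had 11 CpG, and 22.86% had 2 or fewer, the class that holds ANXA1. A match describes letters in a window and not a bound site.

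RNF5 fell in every line. Its normalized read count, the deposited unit, was 1223, 1017 and 1020 with pLKO and 76 and 81 with shRNF5 in MOLM-13, 648 and 843 against 46 and 74 in U937, and 506, 689 and 545 against 37, 133 and 43 in HL-60. Estimated depth ran from 9700000 to 63800000 counted reads per library. In MOLM-13 it moved with the construct, at 9700000 to 15300000 with pLKO and 24400000 to 63800000 with shRNF5, and its part in the MOLM-13 results was not tested. Of 10 myeloid markers, 9 were above 0 in each line, with CEBPE at 0 in MOLM-13 and CD14 at 0 in U937 and HL-60. Of 10 markers of other cell types, 0 were above 0 in MOLM-13 and HL-60 and 1 was in U937, where their summed value was 33 to 113 across the libraries.

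Across the lines, ANXA1 rose with shRNF5 in all 3, and HL-60 added ANXA2, ANXA5 and ANXA6. No annexin was called down, against 1.01% of all genes in MOLM-13, 8.74% for U937 and 12.3% for HL-60. A gene was called at a limma adjusted p under 0.1 (Benjamini-Hochberg over all genes tested in the line) and a log2 fold change beyond 0.4. By that rule 1 of 7 annexins tested rose in MOLM-13, where 1.03% of all genes rose. In U937 it was 1 of 7, against 6.92% of all genes. In HL-60 it was 4 of 8, against 13.6% of all genes. For MOLM-13, the median of the members' log2 fold changes was 0.15 and that of all genes 0.01. For U937 these medians were 0.07 and 0.00, and for HL-60 they were 0.50 and 0.00. Fold changes are on the log2(normalized read count + 1) scale, which understates the change of low genes. In bulk libraries, more cells with a transcript and more transcript per cell cannot be told apart.

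**Figure D1:**
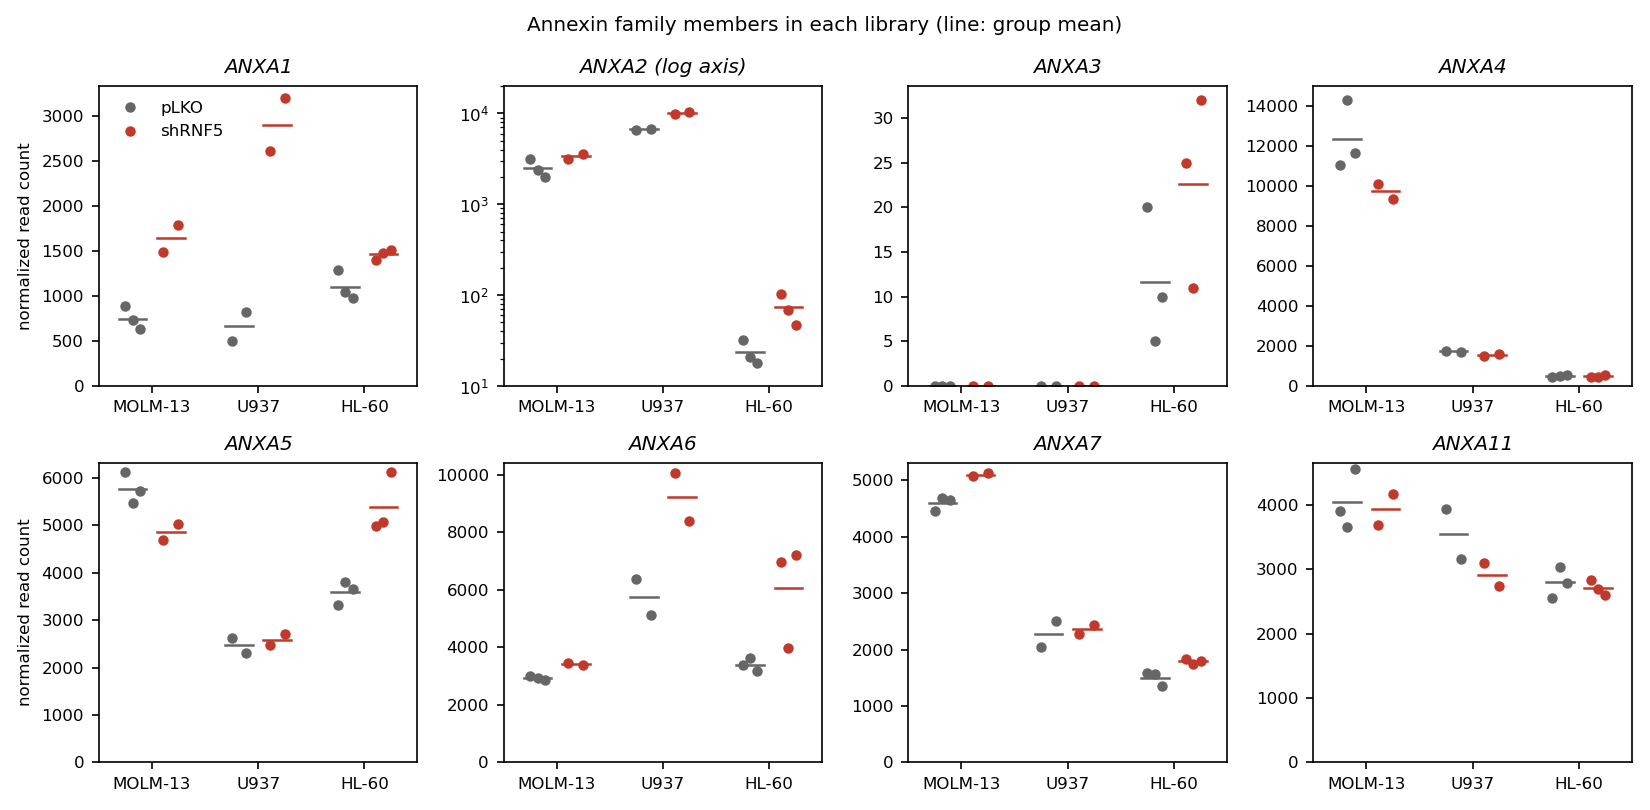
Normalized read count of each annexin (vertical axis, linear from 0 except ANXA2, which has a log axis) in every library of MOLM-13, U937 and HL-60, with pLKO in grey and shRNF5 in red; the short line is the group mean. ANXA1 with shRNF5 sits above every pLKO library in each line, ANXA2 in HL-60 stays at or under 104, and ANXA3 is at 0 outside HL-60.

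ANXA1 encodes the glucocorticoid-inducible annexin that restrains neutrophil recruitment and was first described as an inhibitor of phospholipase A2. The gene (ENSG00000135046.9) lies at chr9:75766781-75785309 on the plus strand (GRCh37), and its start coincides with the RefSeq start of the promoter shown. In MOLM-13 its normalized read count was 885, 728 and 633 with pLKO and 1488 and 1792 with shRNF5. In U937 the values were 502 and 820 with pLKO against 2608 and 3200 with shRNF5. In HL-60 they were 1285, 1043 and 982 against 1402, 1483 and 1506. The groups did not overlap in any line, and the pLKO libraries of HL-60 came closest to their shRNF5 libraries.

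The group means of ANXA1 were 749 ± 127 (SD, n = 3) and 1640 ± 215 (SD, n = 2) in MOLM-13. They were 661 ± 225 and 2904 ± 419 (SD, n = 2 each) in U937 and 1103 ± 160.3 and 1464 ± 54.6 (SD, n = 3 each) in HL-60. With shRNF5, ANXA1 rose 2.20-fold in MOLM-13 (log2 fold change 1.14, SE 0.19, limma adjusted p = 0.0639). It rose 4.50-fold in U937 (log2 fold change 2.17, SE 0.29, limma adjusted p = 0.00917), where it ranked 20 of 13165 genes by p. It rose 1.33-fold in HL-60 (log2 fold change 0.42, SE 0.13, limma adjusted p = 0.0469), close to the fold threshold.

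The direction of ANXA1 held with each library left out, but the call did not. In MOLM-13 it was called in 1 of 5 such fits, with log2 fold changes of 1.00 to 1.27, and adjusted p was 0.184 without pLKO replicate 2, 0.112 without pLKO replicate 3, 0.296 without shRNF5 replicate 1 and 0.455 without shRNF5 replicate 2. In U937 it was called in 1 of 4, with 1.82 to 2.52, and adjusted p was 0.256 without pLKO replicate 2, 0.519 without shRNF5 replicate 1 and 0.128 without shRNF5 replicate 3. In HL-60 it was called in 3 of 6, with 0.34 to 0.53, and the fold change was 0.38 without pLKO replicate 2, 0.34 without pLKO replicate 3 and 0.40 without shRNF5 replicate 3. Without a mean-variance trend the adjusted p in MOLM-13 was 0.146, and in HL-60 it was 0.144 in 1 fit over all 15 libraries. Where 1 library of a group was left, it was assumed to vary like the others.

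The response of ANXA1 differed in size between the lines. In 1 limma fit over all 15 libraries, the log2 fold change in MOLM-13 was below that in U937, a difference of -1.03 (SE 0.31, adjusted p = 0.0518), in a comparison where 15.4% of 11072 genes differed. The U937 minus HL-60 difference was 1.75 (SE 0.29, adjusted p = 0.0012), where 37.2% of genes differed. MOLM-13 minus HL-60 was 0.72 (95% interval 0.13 to 1.31, adjusted p = 0.141), where 8.82% of genes differed, and did not pass. It passed at the same 0.72 without U937 pLKO replicate 2 (limma adjusted p = 0.0702) or U937 pLKO replicate 3 (adjusted p = 0.0707).

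**Figure D2:**
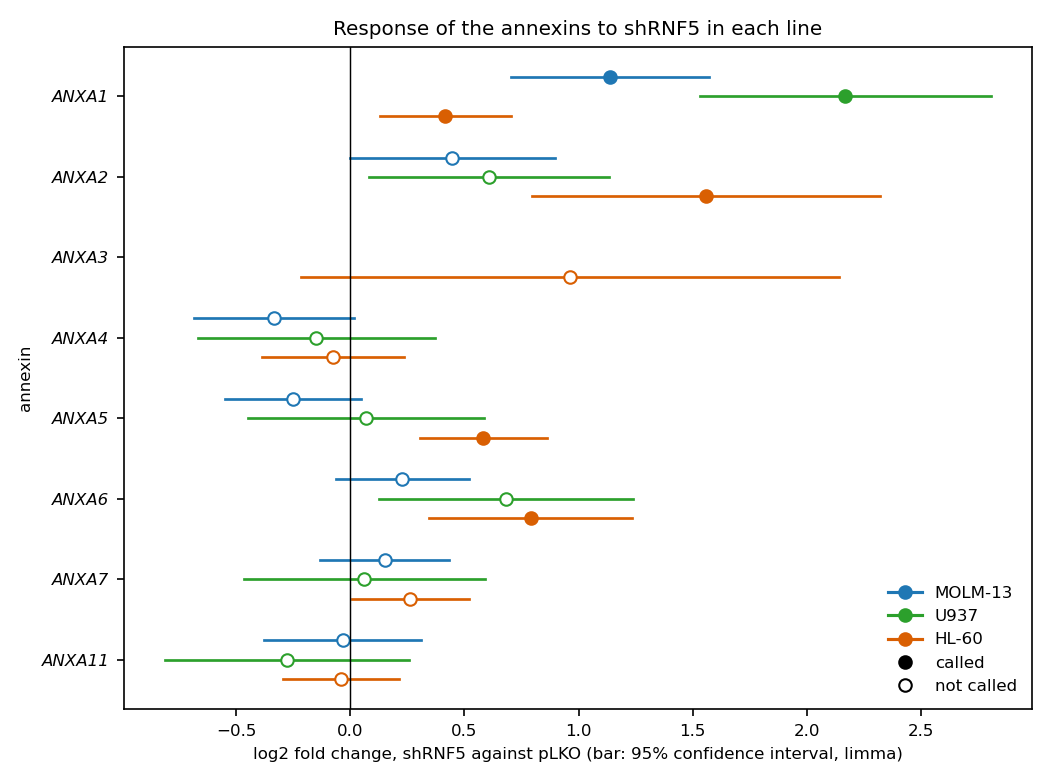
Log2 fold change of each annexin, shRNF5 against pLKO (horizontal axis), by line, with 95% confidence intervals from limma as bars; filled points passed the call rule and open points did not. ANXA1 is filled in all 3 lines, at 1.14, 2.17 and 0.42, and ANXA2, ANXA5 and ANXA6 are filled in HL-60.

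ANXA2 encodes the annexin that forms a heterotetramer with S100A10 and is a cell surface platform for plasminogen activation. The gene (ENSG00000182718.12) lies at chr15:60639333-60695082 on the minus strand. In HL-60 its normalized read count was 32, 21 and 18 with pLKO and 104, 69 and 47 with shRNF5. These values stand for an estimated 15 to 41 reads with pLKO and 57 to 88 with shRNF5, so counting error is large, but no shRNF5 library was as low as any pLKO library. ANXA2 rose in HL-60 with a log2 fold change of 1.56 (SE 0.35, limma adjusted p = 0.0124) and was called in all 6 fits with a library left out, with 1.27 to 1.84.

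In MOLM-13, ANXA2 was at 3114, 2360 and 2014 with pLKO and at 3136 and 3572 with shRNF5, and the highest pLKO library nearly reached the lowest shRNF5 library. In U937 it was at 6568 and 6742 against 9927 and 10356. The shRNF5 libraries were higher in both lines, with log2 fold changes of 0.45 (adjusted p = 0.296) and 0.61 (adjusted p = 0.134), and neither passed. When MOLM-13 pLKO replicate 1 was left out, ANXA2 passed in that line, at 0.62 (limma adjusted p = 0.0659). The U937 minus HL-60 difference in response was -0.95 (SE 0.40, limma adjusted p = 0.0863). MOLM-13 minus HL-60 was -1.11 (SE 0.38, adjusted p = 0.105) and did not pass with all libraries. It passed without MOLM-13 pLKO replicate 3 (limma adjusted p = 0.0777), U937 pLKO replicate 2 (0.0909), U937 pLKO replicate 3 (0.0912), HL-60 pLKO replicate 1 (0.0922) or HL-60 shRNF5 replicate 3 (0.0836), at -1.39 to -1.11.

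The processed pseudogene ANXA2P2, a near copy that could share reads with ANXA2, held 1.25% to 1.75% of the ANXA2 value in the libraries of MOLM-13 and U937 and was listed at 0 in HL-60. It was at 40, 39 and 33 with pLKO and 50 and 46 with shRNF5 in MOLM-13, and at 111 and 84 against 174 and 144 in U937. It did not pass in either line (log2 fold changes 0.36 and 0.71, limma adjusted p = 0.615 and 0.269).

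ANXA5 encodes annexin V, the phosphatidylserine binder that is also used in purified form as the staining reagent. The gene (ENSG00000164111.10) lies at chr4:122589101-122618150 on the minus strand. In HL-60 its normalized read count was 3313, 3803 and 3650 with pLKO and 4977, 5061 and 6128 with shRNF5. All shRNF5 libraries lay above all pLKO libraries, and ANXA5 rose there by a log2 fold change of 0.58 (SE 0.13, limma adjusted p = 0.0115). It was called in all 6 fits with a library left out, with 0.49 to 0.64.

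In MOLM-13, ANXA5 was at 6134, 5468 and 5728 with pLKO and at 4685 and 5023 with shRNF5, so that both shRNF5 libraries lay below the controls. The log2 fold change was -0.25 (95% interval -0.55 to 0.05, adjusted p = 0.359) and did not pass. In U937 the groups overlapped, at 2631 and 2309 against 2482 and 2698, with 0.07 (adjusted p = 0.874). The difference in response between lines was -0.83 for MOLM-13 minus HL-60 (SE 0.19, limma adjusted p = 0.0277) and -0.51 for U937 minus HL-60 (SE 0.20, adjusted p = 0.0618).

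ANXA6 encodes the large annexin with a duplicated core, which acts in endosome and cholesterol traffic and in membrane repair. The gene (ENSG00000197043.9) lies at chr5:150480267-150537376 on the minus strand. In HL-60 its normalized read count was 3388, 3620 and 3166 with pLKO and 6954, 3995 and 7227 with shRNF5. The groups did not overlap, and shRNF5 replicate 2 lay nearest to the controls. ANXA6 rose in HL-60 by a log2 fold change of 0.79 (SE 0.20, limma adjusted p = 0.0221). It was called in all 6 fits with a library left out, and without shRNF5 replicate 2 the value was 1.07.

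In U937, ANXA6 was at 6392 and 5137 with pLKO and 10071 and 8393 with shRNF5. In MOLM-13 it was at 2994, 2929 and 2864 against 3461 and 3401. Every shRNF5 library lay above its controls in both lines, but the log2 fold changes of 0.68 (adjusted p = 0.115) and 0.23 (adjusted p = 0.384) did not pass. The difference in response did not pass for any pair of lines with all libraries, and for U937 minus HL-60 it was -0.11 (95% interval -0.72 to 0.51). Without HL-60 shRNF5 replicate 2, MOLM-13 minus HL-60 moved from -0.56 to -0.84 and passed (limma adjusted p = 0.039).

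**Figure D3:**
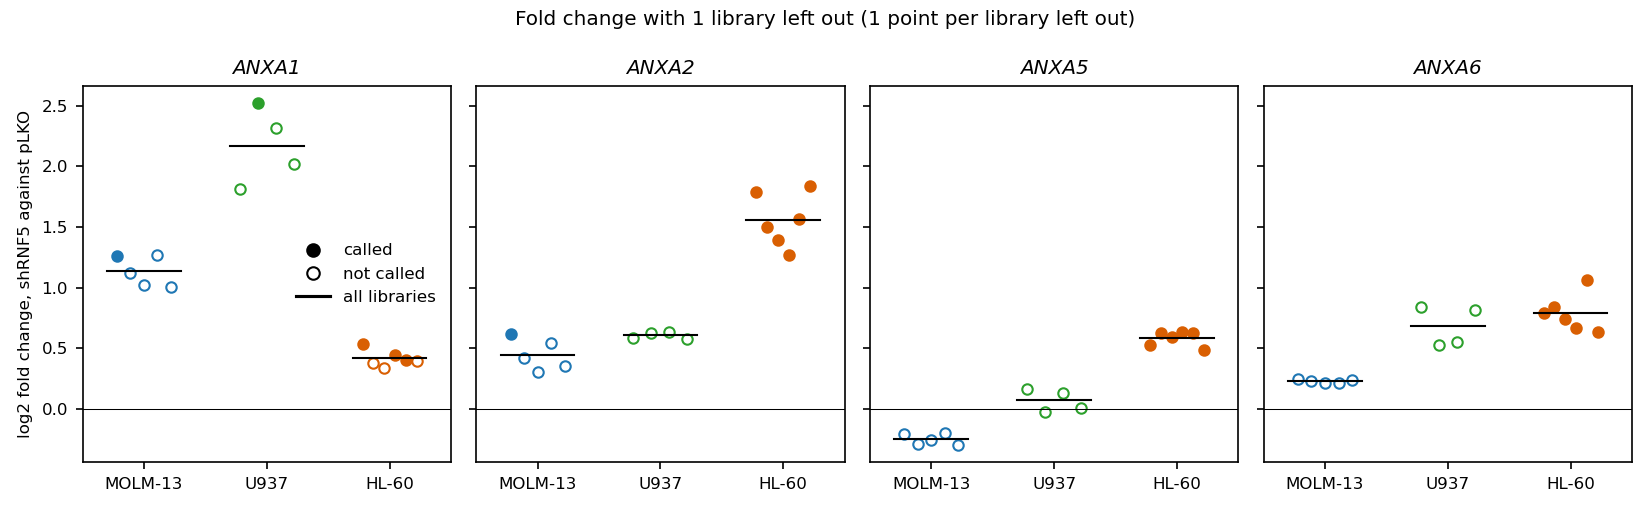
Log2 fold change, shRNF5 against pLKO (vertical axis), of ANXA1, ANXA2, ANXA5 and ANXA6 with 1 library left out at a time; each point is 1 fit, filled where the gene was called, and the black line is the value with all libraries. In HL-60 all 6 points of ANXA2, ANXA5 and ANXA6 are filled, while ANXA1 is filled in 1 of 5, 1 of 4 and 3 of 6 fits in MOLM-13, U937 and HL-60.

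The remaining 4 members were not called in any line. ANXA4 (ENSG00000196975.10, chr2:69871557-70054244, plus strand), an annexin known from epithelial membranes, was at 11028, 14305 and 11658 with pLKO and 10099 and 9347 with shRNF5 in MOLM-13. Both shRNF5 libraries there were below the controls, with a log2 fold change of -0.33 (95% interval -0.69 to 0.02, adjusted p = 0.312). It was at 1496 to 1724 across U937 and at 438 to 536 across HL-60, with log2 fold changes of -0.15 and -0.08. ANXA7 (ENSG00000138279.11, chr10:75134859-75173834, minus strand), which promotes membrane fusion, had 1585, 1564 and 1347 with pLKO and 1833, 1742 and 1802 with shRNF5 in HL-60. The shRNF5 libraries were all higher, with a log2 fold change of 0.26 (95% interval 0.01 to 0.52, adjusted p = 0.136). In MOLM-13 it was 0.15 and in U937 0.06. An antisense gene overlaps 3.67% of the ANXA7 exon bases.

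ANXA11 (ENSG00000122359.13, chr10:81910645-81965328, minus strand), which tethers RNA granules to lysosomes, was at a log2 fold change of -0.03 for MOLM-13, -0.28 for U937 and -0.04 for HL-60. In U937 both shRNF5 libraries (3091 and 2739) lay below the controls (3932 and 3159), and in the other lines the groups overlapped. Its widest 95% interval was that of U937, from -0.81 to 0.26. ANXA3 (ENSG00000138772.8, chr4:79472901-79531605, plus strand), an annexin of neutrophil granules, was listed at 0 in every library of MOLM-13 and U937. In HL-60 it was at 20, 5 and 10 with pLKO and 25, 11 and 32 with shRNF5, an estimated 5 to 41 reads. These groups overlapped, and the log2 fold change of 0.96 (95% interval -0.21 to 2.14, adjusted p = 0.224) did not pass. Of the other annexin genes and pseudogenes, ANXA9 was above 0 in HL-60 alone, at 28 to 43, and ANXA8, ANXA8L1, ANXA8L2, ANXA10, ANXA13, ANXA2P1 and ANXA2P3 were at 0 throughout.

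The lines carried different annexins before any knockdown. With each library scaled to a total of 1000000, the value of ANXA2 with pLKO was 98.1 ± 21.3 (SD, n = 3) in MOLM-13, 409.8 ± 15.7 (SD, n = 2) in U937 and 1.46 ± 0.47 (SD, n = 3) in HL-60. ANXA4 was 485 ± 62.6, 106 ± 1.94 and 30.7 ± 2.10 in the same order. ANXA1 was 29.4 ± 4.74, 40.8 ± 14.7 and 68.1 ± 10.7, where the libraries of MOLM-13 and U937 overlapped. The lines were normalized separately by the authors, so these levels are a description.

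Per kilobase of merged exons, with pLKO, ANXA5 was the first annexin in MOLM-13 (77.7 ± 4.95 of that scaled value per kilobase) and in HL-60 (75.6 ± 4.35), and ANXA6 was first in U937 (64.3 ± 8.64). The order in MOLM-13 was ANXA5, ANXA7, ANXA4, ANXA6, ANXA11, ANXA2 and ANXA1, in which ANXA6 overlapped ANXA11 and ANXA2 overlapped ANXA1. In U937 it was ANXA6, ANXA5, ANXA7, ANXA2, ANXA11, ANXA4 and ANXA1, in which ANXA5 overlapped ANXA7 and ANXA4 overlapped ANXA1. In HL-60 it was ANXA5, ANXA6, ANXA7, ANXA11, ANXA1, ANXA4, ANXA3 and ANXA2, in which ANXA3 overlapped ANXA2. The order depends on how length enters. With no length scaling, which is how values from a 3′ end kit are read, ANXA4 was first in MOLM-13 (485 ± 62.6 of the scaled value, against 227 ± 14.5 for ANXA5), ANXA2 was first in U937 (410 ± 15.7, against 354 ± 47.6 for ANXA6), and ANXA5 overlapped ANXA6 at the top in HL-60 (221 ± 12.7 and 209 ± 13.2). The labels name such a kit and the methods another, so the order is uncertain. Per kilobase of the canonical transcript, ANXA4 (183 ± 23.6) came first in MOLM-13 and ANXA2 (264 ± 10.1) first in U937, while ANXA5 stayed first in HL-60. Merged exons of ANXA2 span 11574 bases and its canonical transcript 1554.

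The summed level of the 8 members per kilobase of merged exons was 237 to 241 with pLKO, in the same scaled unit, and 235 to 248 with shRNF5 in MOLM-13, which overlapped. In U937 it was 243 to 247 against 309.6 to 332, and in HL-60 178 to 192 against 234 to 281. The shRNF5 libraries of U937 and HL-60 lay above all their controls.

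The partners of annexins were then read from lists of 27 genes: calcium-binding partners, receptors, the cytosolic phospholipase, genes of phosphatidylserine exposure and glucocorticoid-responsive genes. PLSCR3 was not analysed here. In HL-60, 8 of the 22 partners tested were called, 3 up and 5 down, where 25.9% of all genes were called. In U937 it was 5 of 25, 3 up and 2 down, against 15.7% of all genes. The 3 up included FPR1, which was near 0 in the control libraries. In MOLM-13 limma called 0 of 22, against 2.04% of all genes, with 8 at an unadjusted p under 0.05, where 17% of all genes were. The U937 count was 0 without pLKO replicate 2, 0 without shRNF5 replicate 1 and 0 without shRNF5 replicate 3. The HL-60 count was 5 without pLKO replicate 3 and 5 without shRNF5 replicate 3, and the MOLM-13 count was 4 without pLKO replicate 1.

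Among the calcium-binding partners, S100A10, the ANXA2 light chain, went the other way from ANXA2 in HL-60. Its normalized read count there was 345, 462 and 398 with pLKO and 271, 300 and 299 with shRNF5, all lower, and it fell by 0.46 on the log2 scale (limma adjusted p = 0.0596). The ratio of the ANXA2 to the S100A10 value within a library, which does not depend on the scaling, was 0.0928, 0.0455 and 0.0452 with pLKO and 0.384, 0.23 and 0.157 with shRNF5. The ratio was thus higher in every shRNF5 library of HL-60. In MOLM-13 it was 1.56 to 2.44 with pLKO and 2.14 to 2.16 with shRNF5, and in U937 9.04 to 13.03 against 10.98 to 19.4, with overlap in both lines.

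Other partners of this list also moved in HL-60. S100A4 was at 1093, 1757 and 1204 with pLKO and 3974, 4456 and 8390 with shRNF5 (log2 fold change 2.001, limma adjusted p = 0.00157). S100A6, a partner of ANXA2 and ANXA11, was at 219, 373 and 264 against 693, 687 and 952 (1.46, adjusted p = 0.00212). Both rose with no overlap, and more than in the other lines. The MOLM-13 minus HL-60 differences in response were -2.31 and -1.49 (adjusted p = 0.0194 and 0.0277). The U937 minus HL-60 differences were -1.96 and -1.23 (adjusted p = 0.00852 and 0.0178). SRI, which encodes the ANXA7 partner sorcin, fell by 0.78 on the log2 scale (limma adjusted p = 0.00512). S100A11, the ANXA1 light chain, was not called, with 0.25, 0.62 and 0.32 in the order MOLM-13, U937, HL-60. PDCD6, the ANXA11 partner ALG-2, PDCD6IP and AHNAK were not called in any line.

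**Figure D4:**
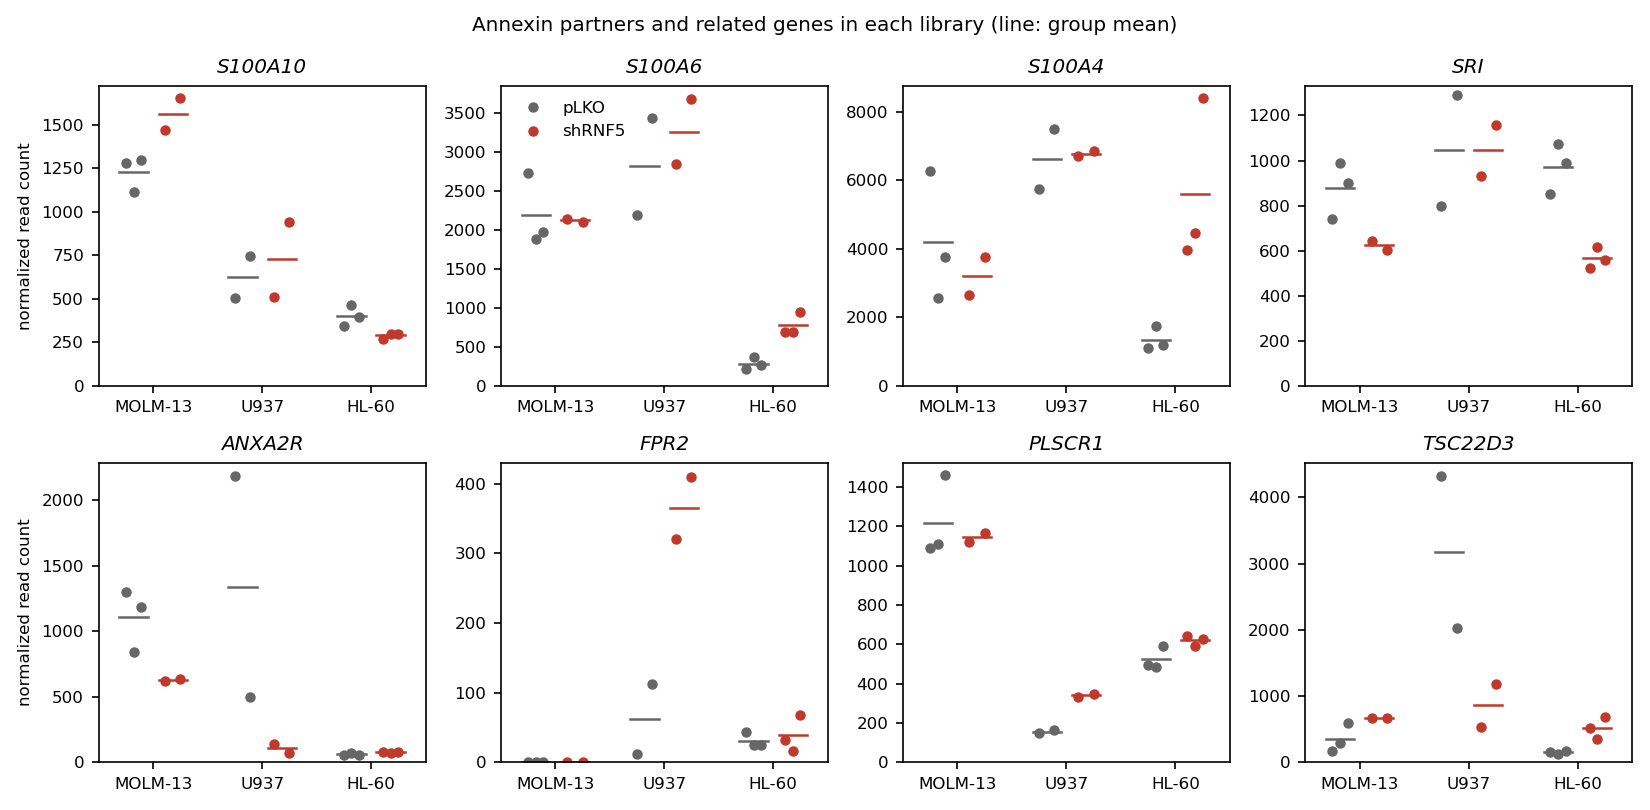
Normalized read count (vertical axis, linear from 0) of 8 annexin partners and related genes in every library, with pLKO in grey, shRNF5 in red and a short line at each group mean. S100A10 with shRNF5 lies below and S100A4 and S100A6 lie above every control in HL-60, and ANXA2R in U937 is at 2182 and 497 with pLKO and 144 and 75 with shRNF5.

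The receptors moved in U937. FPR2, a receptor for ANXA1, was at 12 and 112 with pLKO and 321 and 410 with shRNF5 and rose (log2 fold change 3.25, limma adjusted p = 0.0392). Its pLKO libraries were far apart and the lower one was low, so the size of that rise is uncertain. In HL-60 the groups of FPR2 overlapped (0.14, limma adjusted p = 0.848), and in MOLM-13 it was not tested. FPR1 was at 1 and 0 against 31 and 36. Genes below the authors' filter were set to 0, so FPR1 stayed in U937 through its shRNF5 libraries. Its call there was favoured by that filter and is not support for a rise, and no fold is given. FPR3 was at 0 throughout. ANXA2R, named as an ANXA2 receptor, was at 2182 and 497 with pLKO and 144 and 75 with shRNF5, all lower, and fell by 3.31 on the log2 scale (limma adjusted p = 0.0185). The pLKO libraries of U937 were far apart in this gene, and the lower one still lay above both shRNF5 libraries. In MOLM-13 ANXA2R was at 1299, 844 and 1186 against 619 and 635, also without overlap, but -0.80 (adjusted p = 0.129) did not pass. In HL-60 it was at 57 to 82 with overlap. The antisense gene ANXA2R-AS1 overlaps 5.15% of its exon bases. Its response differed between MOLM-13 and U937 (2.51, adjusted p = 0.0312) and between U937 and HL-60 (-3.56, adjusted p = 0.0013).

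Of the genes of phosphatidylserine exposure, PLSCR1, a phospholipid scramblase, rose in U937 from 147 and 167 to 334 and 347 (log2 fold change 1.11, limma adjusted p = 0.0635). In HL-60 the scramblase ANO6 fell by 0.44 on the log2 scale (limma adjusted p = 0.0514). PLA2G4A, the cytosolic phospholipase A2 that ANXA1 is known to inhibit, was not called, with 0.54, -0.03 and 0.31 in MOLM-13, U937 and HL-60.

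The glucocorticoid-responsive genes, listed because ANXA1 belongs to the same class, did not share a direction. TSC22D3, which encodes GILZ, was at 4315 and 2032 with pLKO and 537 and 1190 with shRNF5 in U937 and fell by 1.89 on the log2 scale (limma adjusted p = 0.0314). In HL-60 it was at 151, 131 and 177 against 517, 351 and 682 and rose (1.71, adjusted p = 0.00177). In MOLM-13 the shRNF5 libraries of TSC22D3 lay above the controls, but 1.08 (adjusted p = 0.263) did not pass. The U937 minus HL-60 difference was -3.60 (adjusted p = 0.00133) and the MOLM-13 minus U937 difference was 2.97 (adjusted p = 0.0198). PER1 fell in HL-60 by 0.88 (adjusted p = 0.0258). FKBP5 had -0.69, -0.29 and -0.37 and was not called, and NR3C1, the receptor itself, had -0.64, -0.35 and -0.27 and was not called in any line.

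Of the 9 myeloid markers tested in HL-60, limma called 3 up (PTPRC, MPO and LYZ, against 13.6% of all genes) and 1 down (CD33, against 12.3%), and the other 5 were not called. LYZ was called although its libraries overlapped, at 1201, 377 and 270 with pLKO and 1698, 787 and 1236 with shRNF5. MPO, the myeloperoxidase of granules, was at 125950, 130372 and 105563 with pLKO and 205517, 141317 and 207430 with shRNF5. The summed normalized read count of the list was 116922 to 141350 against 151966 to 221617, of which MPO made up 90.3% to 93.6% in every library. Without MPO the sum was 10978 to 11359 with pLKO and 10649 to 14393 with shRNF5, which overlapped. In the other lines the ranges of the sum over the whole list overlapped in MOLM-13 (38221 to 61526 against 39389 to 65201) and lay lower with shRNF5 in U937 (22982 to 24412 against 18663 to 22198). LYZ made up a large part of the U937 sums, at 11555 and 16704 with pLKO and 13342 and 10482 with shRNF5, which overlapped. Of the 9 markers tested in U937, limma called CSF3R down (log2 fold change -0.97, adjusted p = 0.0614) and not the other 8, where 8.74% of all genes were called down. The part of these markers in the annexin results was not tested.

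The genes most like ANXA1 were sought by Pearson correlation over the 15 libraries, after each gene was centred on its mean in each line, among 9625 genes. They were EIF4E2 (0.96), GLIPR1 (0.94), UBE2D4 (0.94), FAM118B (0.93) and ZNF326 (0.92). The points share the contrast of shRNF5 with pLKO and the scaling of each library. That contrast thus helped to pick these genes, so their fold changes and adjusted p-values below are a description and not independent support. GLIPR1 rose in U937 (by 3.003 on the log2 scale, limma adjusted p = 0.00901) and HL-60 (0.72, adjusted p = 0.00893) and had 0.81 in MOLM-13 (adjusted p = 0.141). EIF4E2 rose in U937 (1.08, limma adjusted p = 0.0473) and HL-60 (0.43, adjusted p = 0.0344) and had 0.56 in MOLM-13 (adjusted p = 0.157). UBE2D4, FAM118B and ZNF326 were not called in MOLM-13 or HL-60. In HL-60 they had 0.07, 0.27 and -0.06 (limma adjusted p = 0.741, 0.238 and 0.729). In U937 UBE2D4 (1.14, adjusted p = 0.0605) and ZNF326 (0.79, adjusted p = 0.0744) rose, and FAM118B (0.95, adjusted p = 0.113) did not pass. Among the annexins, likeness to ANXA1 was 0.57 for ANXA6, 0.52 for ANXA2, 0.51 for ANXA7 and 0.06 for ANXA5, and it was -0.58 for ANXA4 and -0.66 for ANXA11.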

How the data were processed

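RNA-seq of 15 libraries was analysed. By their methods, the authors aligned single-end reads to hg19 (STAR), assigned them to genes (featureCounts) and normalized each line by itself (edgeR within SARTools). The deposited unit is a score: the authors multiplied each library's counts by 1 factor, rounded the products and set genes below their filter to 0. Those factors, and from them the depths, were estimated from the spacing of the values, a step tested on simulated data. No counting intervals are given, since the values are not counts. The labels name a 3′ end kit and the methods a directional poly(A) kit, which bears on levels per kilobase.

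Limma 3.58.1 in R 4.3.3 was run on log2(value + 1) with a mean-variance trend, line by line, for every gene above 0 in any library of the line (13026, 13165 and 12570 genes in the order used in the text), after tests on simulated data. Differences between lines came from 1 fit to 11072 genes above 0 in each line. Members and lists were chosen with earlier results of these data known. The genes named are the members, RNF5, the other annexins, partners that passed or had high values, and the 5 genes most like ANXA1; 2 list genes are counted but not reported here by name. Coordinates and lengths are GENCODE's on GRCh37, matched for 55538 of 57820 identifiers. A correction for exon length and the canonical transcript length were chosen after seeing the data.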

Additional observations from a re-analysis of the deposited data

Results flagged for a closer look

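The responses of ANXA1, ANXA2 and ANXA5 to shRNF5 differed between lines in 1 limma fit over 15 libraries (adjusted p under 0.1 over 11072 genes). For ANXA1 the difference was -1.03 for MOLM-13 minus U937 (adjusted p = 0.0518) and 1.75 for U937 minus HL-60 (adjusted p = 0.0012), and the latter passed with each library left out, at 1.40 to 2.11. The former was 0.175 in adjusted p without MOLM-13 shRNF5 replicate 1, 0.132 without MOLM-13 shRNF5 replicate 2, 0.212 without U937 pLKO replicate 2, 0.141 without U937 shRNF5 replicate 1 and 0.114 without U937 shRNF5 replicate 3.

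For ANXA2 the difference was -0.95 for U937 minus HL-60 (adjusted p = 0.0863), and it passed in 4 of 15 limma fits with a library left out, those without MOLM-13 pLKO replicate 1, MOLM-13 pLKO replicate 3, HL-60 pLKO replicate 1 and HL-60 shRNF5 replicate 3. Over the 15 fits it ran from -1.23 to -0.67, with adjusted p from 0.0285 to 0.198.

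For ANXA5 the difference was -0.83 for MOLM-13 minus HL-60 (limma adjusted p = 0.0277), which did not pass without MOLM-13 shRNF5 replicate 1 (adjusted p = 0.173) or MOLM-13 shRNF5 replicate 2 (0.106). It was -0.51 for U937 minus HL-60 (limma adjusted p = 0.0618), which did not pass without U937 pLKO replicate 2 (0.174), U937 shRNF5 replicate 1 (0.183), HL-60 pLKO replicate 1 (0.135) or HL-60 shRNF5 replicate 3 (0.139).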

How the results depend on the processing

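ANXA2, ANXA5 and ANXA6 in HL-60 passed under every alternative in which they were tested (ANXA2 was not tested at a mean value of at least 50). ANXA1 in U937 passed under each alternative other than leaving out libraries. ANXA1 in HL-60 did not pass in 1 fit over all 15 libraries (0.42, adjusted p = 0.144) or with a correction for exon length (0.38). Without a mean-variance trend, limma called 0 annexins and 55 genes in MOLM-13, and 475 genes and 1 partner in U937. At an adjusted p under 0.05 it called 0 annexins and 39 genes in MOLM-13 and 824 genes in U937, and the annexins that differed were 0 for MOLM-13 against U937 and 1 for U937 against HL-60. In 1 fit over all 15 libraries, 2 annexins (ANXA1 and ANXA6) and 3994 genes were called in U937 and 5 partners in HL-60. The correction for exon length gave 1 partner in MOLM-13 and, in HL-60, 0.022 for ANXA4 and 0.018 for ANXA11, reversed from the values above but not called. By the title numbers, same-numbered libraries correlated at -0.17 and -0.53 in MOLM-13 and at 0.50, 0.16 and -0.11 in HL-60. By those numbers not every sample correlated best with its own number, and the numbers were not taken as pairs. A second numbering calls MOLM-13 shRNF5 replicates 1 and 2 of the titles 2 and 3. By it the MOLM-13 values were 0.53 and 0.28. With 2 shRNF5 libraries the deviations mirror each other, so these values cannot decide whether MOLM-13 was paired. With a replicate block by the title numbers, limma called 1 annexin, 3 partners and 741 genes in MOLM-13, where ANXA11 was at 0.057. It called 4 annexins and 3580 genes in HL-60. The block under the second MOLM-13 numbering was not tested. No paired analysis was possible for U937, because its groups share the number 3 alone. With 1 library left out, MOLM-13 gave 0 to 2 annexins, 0 to 4 partners and 1 to 872 genes, U937 gave 0 to 1 annexins, 0 to 7 partners and 0 to 2369 genes, and HL-60 gave 3 to 4 annexins, 5 to 10 partners and 1970 to 3413 genes. The annexins that differed then numbered 0 to 1 for MOLM-13 against U937, 0 to 3 for MOLM-13 against HL-60 and 1 to 3 for U937 against HL-60. Values that changed sign with a library left out were not called: ANXA11 in MOLM-13 (-0.12 to 0.057) and HL-60 (-0.10 to 0.021), and ANXA5 (-0.024 to 0.16) and ANXA7 (-0.087 to 0.21) in U937. Among the differences they were ANXA2 (-0.30 to 0.011) and ANXA7 (-0.058 to 0.24) for MOLM-13 minus U937, ANXA11 (-0.081 to 0.098) for MOLM-13 minus HL-60, and ANXA4 (-0.13 to 0.0203) and ANXA6 (-0.38 to 0.0497) for U937 minus HL-60. The causes were not tested. Of the 5 genes most like ANXA1, 2 were among the 5 by Spearman correlation. The depth limits ANXA2 and ANXA3 in HL-60 most.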
